A study of Mus musculus with 6 samples.

Results

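The levels of 10 genes of simple epithelium were followed in the lacrimal gland: the keratins Krt7, Krt8, Krt18 and Krt19, the adhesion molecules Epcam and Cdh1, and the tight junction genes Cldn3, Cldn4, Ocln and Tjp1. They were picked as a list of luminal keratin, adhesion and tight junction genes that gauges the epithelium of the gland and its barrier. They make up 10 of the 55401 gene identifiers in the count table. All 10 passed the filter on low counts and were among the 18537 genes tested. The study sequenced polyadenylated RNA of lacrimal glands, the main tear glands of the eye, from 3 NOD/Ltj samples and 3 ICR samples, with 1 library per sample. NOD/Ltj is an inbred mouse strain that develops autoimmune inflammation of its tear and salivary glands and serves as a model of Sjögren's syndrome. ICR is an outbred mouse stock that was used as the control, so the groups differ in their whole genetic background and not in a single allele. The labels name no treatment, age or sex, and leave unsaid how many animals the samples represent. The p-values below therefore cover the spread among these libraries, which may be technical in part.

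Simple epithelia, in which a single layer of cells faces a lumen, build their intermediate filaments from pairs of keratins, a type II chain (Krt7, Krt8) with a type I chain (Krt18, Krt19). Krt8 and Krt18 are found in most secretory epithelium, while Krt7 and Krt19 are best known from ducts. The cells are held together by adherens junctions, whose core is E-cadherin (Cdh1), and are sealed by tight junctions. In the tight junction, claudins set which ions pass between cells, occludin (Ocln) is a further membrane protein, and ZO-1 (Tjp1) is the scaffold that ties both to actin. Epcam is a surface glycoprotein of simple epithelium. In the lacrimal gland, acini secrete tear protein and fluid and ducts carry and modify them.

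The libraries held between 58426580 (ICR 1) and 76554340 (ICR 2) estimated counts, at about 4 counts per fragment. Levels are given as CPM, the counts scaled to a fixed library total after TMM scaling between libraries. The library ICR 1 stood apart, and the log2 fold changes of the 10 genes are given with and without it. It had the highest level of the 6 libraries for 9 of the 10 genes, all but Ocln, whereas it was the highest for 26.0% of all genes tested. It exceeded the next library at least 2-fold for 3 of them (Krt7, Krt19 and Cldn4), against 3.88% of all genes tested. Other lists moved with it, among them genes used in all cells. The sum of 12 such reference genes was 2878 to 3524 CPM in NOD/Ltj and 4573 CPM in ICR 1. It was 3610 and 2605 CPM in ICR 2 and ICR 3, and 7 of the 12 genes were highest in ICR 1. Without Eef1a1, the most abundant, the sum was 1663 CPM in ICR 1 and 1190 to 1487 CPM elsewhere. The 7 markers of Schwann cells and nerve summed to 57.1 CPM in ICR 1 and 33.8 to 39.1 CPM elsewhere. Summed levels of 16 duct markers were 123 to 236 CPM in NOD/Ltj libraries, 456 CPM in ICR 1 and 153 and 156 CPM in ICR 2 and ICR 3. Summed levels of 8 fibroblast markers were 433 to 585 CPM in NOD/Ltj, 2852 CPM in ICR 1 and 615 and 648 CPM in the other ICR libraries, with 7 of the 8 highest in ICR 1. The 9 macrophage and 7 adipocyte markers were also highest in ICR 1 as sums (213 and 75.3 CPM). The sums of the duct, squamous, fibroblast and adipocyte lists were also highest in ICR 1 without the most abundant gene of each list. These sums were chosen after the values were seen. For macrophages this sum cannot test the lead of ICR 1, since the gene left out, C1qb, was itself highest in NOD 2. C1qa and C1qc were also highest in NOD 2, and the other 6 of the 9 macrophage markers in ICR 1. Among these, Cd163 and Mrc1 stood out in ICR 1, at 11.2-fold and 5.71-fold above the next library. The 12 acinar markers summed to 3587 CPM in ICR 1, against 6654 to 8911 CPM in NOD/Ltj and 5314 and 7995 CPM in ICR 2 and ICR 3, but that order was set by the secreted lipocalin Lcn11, at 2480 CPM in ICR 1 and 5622 to 7684 CPM in NOD/Ltj. Without Lcn11 the other 11 acinar markers summed to 1228, 1032 and 1081 CPM in NOD 1, 2 and 3, against 1106, 1248 and 1320 CPM in ICR 1, 2 and 3, and 4 of the 12 were highest in ICR 1. No duct, acinar, fibroblast, macrophage or adipocyte marker was at 0 in all libraries. Of 13 markers of squamous surface epithelium, Ivl, Krt4, Lypd3 and Sprr3 were at 0 in all libraries, and the sum was 3.68 to 6.45 CPM in NOD/Ltj, 17.4 CPM in ICR 1 and 5.51 and 4.37 CPM in ICR 2 and ICR 3. ICR 3 stood apart in other lists. Its summed salivary gland markers were at 12605 CPM, against 902 and 1718 CPM in ICR 1 and ICR 2. In NOD 1, 2 and 3 they summed to 459, 2474 and 417 CPM, so NOD 2 was well above the other NOD/Ltj libraries. Skeletal muscle markers summed to 143 CPM in ICR 3, 1.43 and 1.29 CPM in ICR 1 and ICR 2 and 1.74 to 5.44 CPM in NOD/Ltj. Without ICR 3, edgeR called 0 of the 10 genes, as with all libraries, and 120 higher and 29 lower among 19313 genes tested. In that fit 3 of the 10 had an unadjusted p under 0.05, and the share of all genes at that threshold was not counted. The part of these cell types in the levels below was not tested. In bulk tissue, fewer cells of a type and less RNA per cell cannot be told apart.

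**Figure D1:**
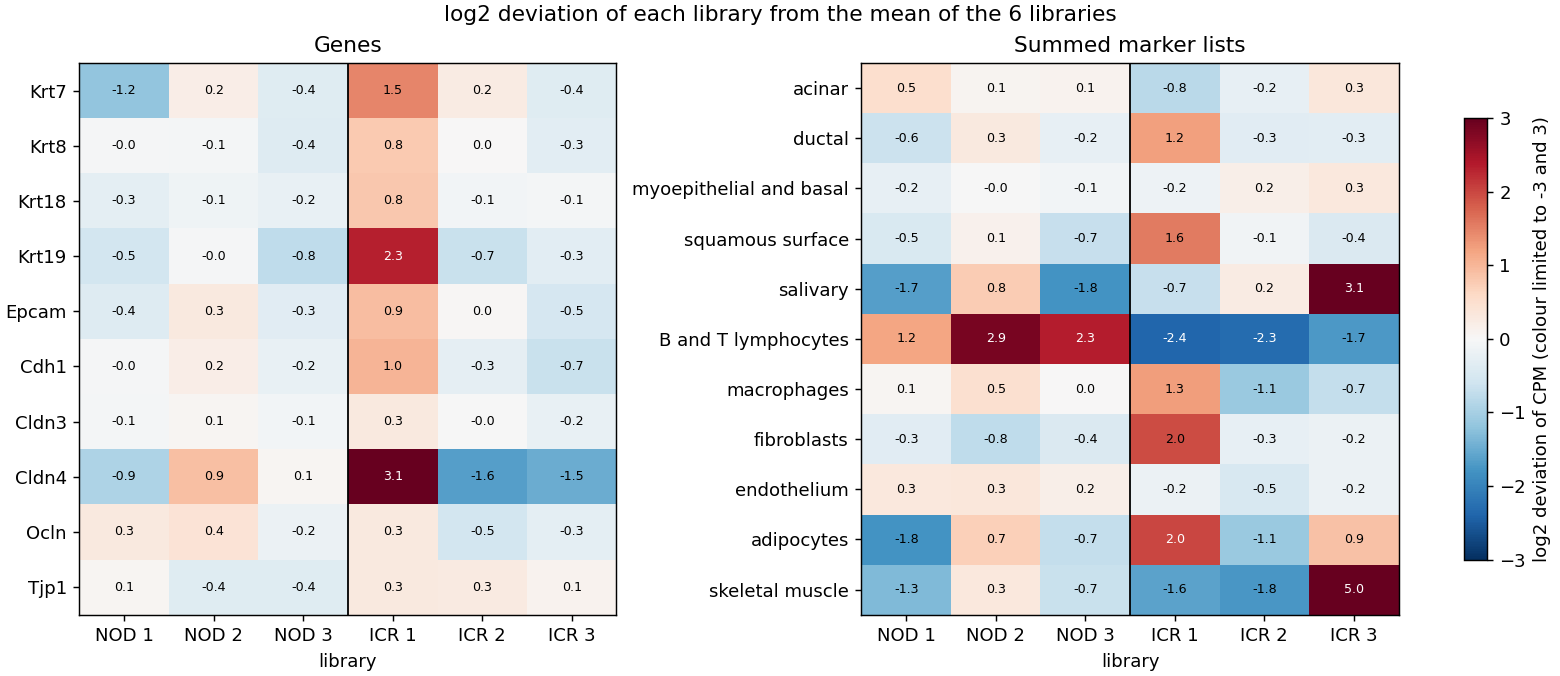
log2 deviation of each library from the mean of the 6 libraries, for the 10 genes (left) and for the summed CPM of marker lists (right), with NOD/Ltj libraries left of the black line and ICR libraries right of it. ICR 1 is above the mean for each of the 10 genes and for the duct, squamous, macrophage, fibroblast and adipocyte lists. It is below the mean for the acinar list, whose sum is mostly Lcn11.

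No gene of the 10 differed between the strains in edgeR's quasi-likelihood test at an adjusted p under 0.05, where 2.24% of all genes tested did (1.88% higher and 0.361% lower in NOD/Ltj). DESeq2 and limma-voom called 0 of the 10 as well. At an unadjusted p under 0.05, edgeR counted 1 of 10 (Tjp1, lower), against 13.1% of all genes tested, or 5.05% counting only lower ones. DESeq2 counted 2 and limma-voom 1, but the share of all genes at that threshold was not counted for these tests. The log2 fold change (NOD/Ltj over ICR) was negative for 9 of 10, against 53.0% of all genes tested, with a median of −0.41 for the 10 and −0.03 for all. The lean depended on ICR 1: without it, 4 of 10 were negative and the median was 0.07. The groups did not overlap for 2 of 10 genes, Krt18 and Tjp1, both lower in NOD/Ltj, where 8.89% of all genes tested were lower without overlap.

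**Figure D2:**
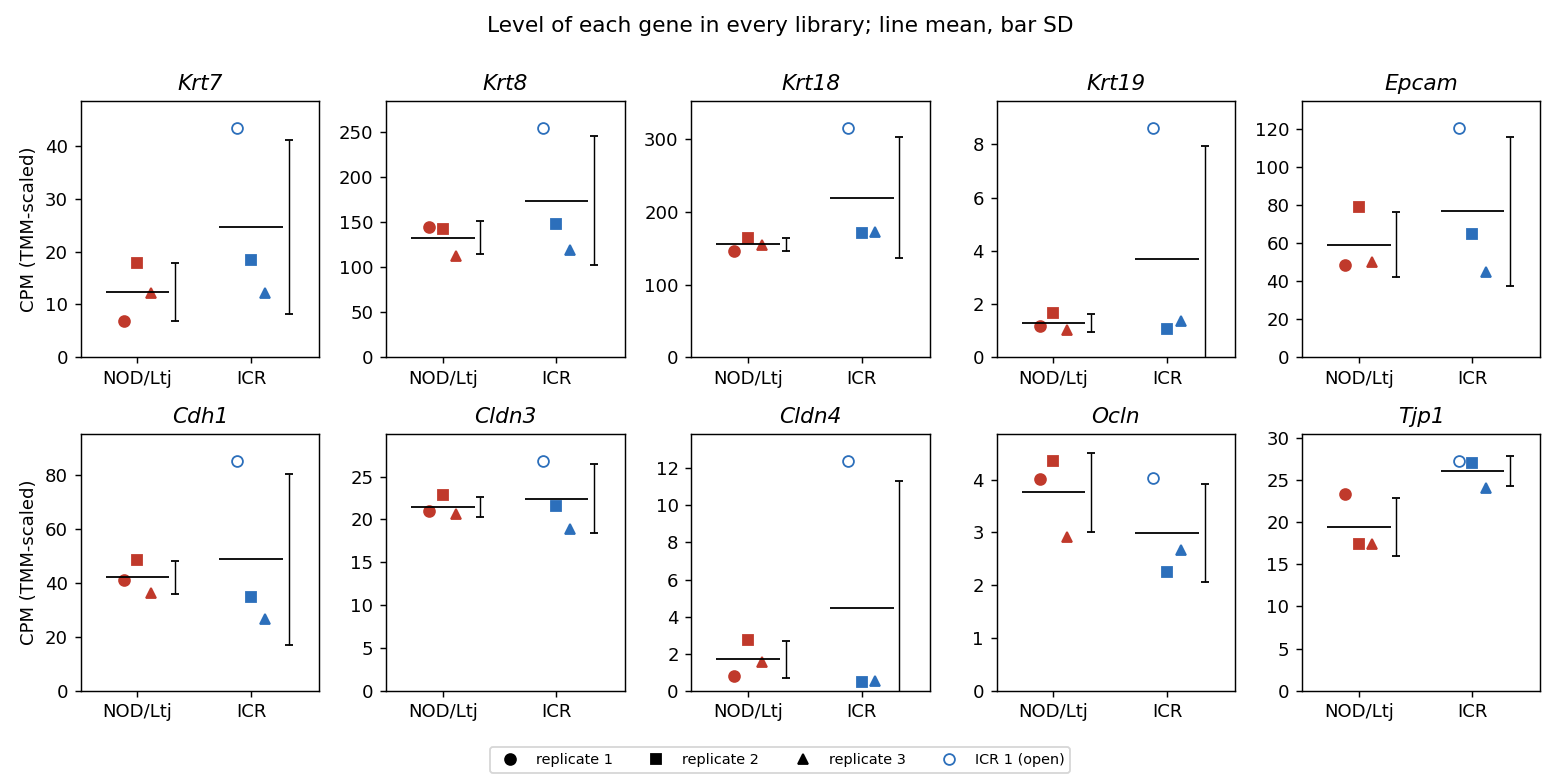
CPM of each gene in every library, with NOD/Ltj left and ICR right in each panel. Lines are group means and bars are SD (n = 3 each; the bars of Krt19 and Cldn4 in ICR are cut off at 0). The open circle is ICR 1, which is the highest point in every panel but that of Ocln.

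Krt8 and Krt18, the obligate partners of the most widespread simple keratin filament, were the most abundant of the 10 in both strains. Their genes lie near each other on chromosome 15 on opposite strands. Their promoters are shown because the pair carried most of the signal of the 10 genes and kept a similar ratio from library to library. They run from 250 bases before to 50 bases after the start site in RefSeq (GRCm38.p6, C57BL/6J), and capitals mark CAGGTG on either strand, a 6-base sequence bound by the epithelial repressors of the Snail and Zeb families. Krt8 is chr15:102004293-102004592 on the minus strand and Krt18 is chr15:102027966-102028265 on the plus strand.
Krt8: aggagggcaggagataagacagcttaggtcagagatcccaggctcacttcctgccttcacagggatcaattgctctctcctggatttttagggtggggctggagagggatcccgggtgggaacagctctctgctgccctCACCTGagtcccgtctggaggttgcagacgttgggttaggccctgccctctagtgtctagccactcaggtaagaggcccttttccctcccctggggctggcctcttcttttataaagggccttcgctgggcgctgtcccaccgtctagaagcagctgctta
Krt18: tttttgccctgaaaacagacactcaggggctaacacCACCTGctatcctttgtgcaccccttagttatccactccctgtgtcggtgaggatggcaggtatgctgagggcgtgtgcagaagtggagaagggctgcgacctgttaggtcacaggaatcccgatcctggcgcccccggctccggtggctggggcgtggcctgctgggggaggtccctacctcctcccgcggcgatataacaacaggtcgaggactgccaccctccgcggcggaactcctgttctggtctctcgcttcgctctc

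Krt8 stood at 144, 143 and 112 CPM in NOD 1, 2 and 3, against 255, 148 and 119 CPM in ICR 1, 2 and 3. The NOD/Ltj values lay within the range of ICR 2 and ICR 3 or just below it, and ICR 1 alone was higher. The log2 fold change was −0.39 ± 0.31 (SE, adjusted p = 0.701), and −0.02 ± 0.21 without ICR 1. Krt18 stood at 147, 164 and 155 CPM in NOD 1, 2 and 3, against 316, 170.4 and 173 CPM in ICR 1, 2 and 3. All NOD/Ltj libraries were below all ICR libraries, by a small margin to ICR 2 and ICR 3. This gave a log2 fold change of −0.50 ± 0.29 (SE, adjusted p = 0.545) and −0.16 ± 0.18 without ICR 1 (adjusted p = 0.736). Together the pair gave 64.3% ± 2.72 of the summed CPM of the 10 genes in NOD/Ltj (SD, n = 3). In ICR the share was 65.9% ± 2.86 (SD, n = 3). ICR 1, the library that stood apart, had the lowest share in ICR, 63.5%, against 65.1% in ICR 2 and 69.0% in ICR 3.

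Krt7 and Krt19, the keratins best known from ducts, were far less abundant and varied more. The Krt7 promoter (chr15:101412153-101412452, plus strand, GRCm38.p6, same marking) is shown beside those of Krt8 and Krt18, since Krt7 is a keratin of the same chromosome with a wider spread.
Krt7: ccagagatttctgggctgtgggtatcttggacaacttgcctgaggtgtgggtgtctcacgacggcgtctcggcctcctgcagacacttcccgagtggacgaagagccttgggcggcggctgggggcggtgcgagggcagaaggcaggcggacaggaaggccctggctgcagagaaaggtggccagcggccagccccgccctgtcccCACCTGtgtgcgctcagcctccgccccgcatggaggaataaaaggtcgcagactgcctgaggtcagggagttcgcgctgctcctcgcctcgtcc

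Krt7 stood at 6.94, 17.9 and 12.1 CPM in NOD 1, 2 and 3, against 43.5, 18.5 and 12.2 CPM in ICR 1, 2 and 3. ICR 1 was 2.35-fold above the next library, and NOD 1 was the lowest of the 6. edgeR put the log2 fold change at −1.001 ± 0.51 (SE, adjusted p = 0.487), and −0.33 ± 0.40 without ICR 1 (adjusted p = 0.761). Krt19 stood at 1.17, 1.67 and 1.01 CPM in NOD 1, 2 and 3, against 8.62, 1.07 and 1.36 CPM in ICR 1, 2 and 3. Its other 5 libraries lay close together, and ICR 1 was 5.17-fold above the next. The log2 fold change of −1.52 ± 0.79 (SE, adjusted p = 0.496) became 0.07 ± 0.39 without ICR 1 (adjusted p = 0.960). The libraries other than ICR 1 held 63 to 134 counts of Krt19, so differences among them rest on few fragments.

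The adhesion genes were at middle levels. Epcam, a homophilic adhesion glycoprotein that also binds claudins, stood at 48.7, 78.8 and 50.1 CPM in NOD 1, 2 and 3, against 120.5, 65.0 and 44.8 CPM in ICR 1, 2 and 3. The groups overlapped, with NOD 2 above ICR 2 and ICR 3. Its log2 fold change was −0.38 ± 0.38 (SE, adjusted p = 0.775) and 0.09 ± 0.29 without ICR 1 (adjusted p = 0.922). Cdh1, the E-cadherin gene, stood at 41.2, 48.6 and 36.4 CPM in NOD 1, 2 and 3, against 85.1, 34.8 and 26.5 CPM in ICR 1, 2 and 3. Every NOD/Ltj library was above ICR 2 and ICR 3 and below ICR 1. With all libraries the log2 fold change was −0.22 ± 0.42 (SE, adjusted p = 0.899), and 0.44 ± 0.21 without ICR 1, which did not pass (adjusted p = 0.361).

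Cldn3 and Cldn4 lie close together on chromosome 5, and their levels followed different orders of the libraries. Both are known to tighten the junction or to set its ion selectivity in cultured epithelium. Their promoters are shown for comparison (GRCm38.p6, same marking). Cldn3 is chr5:134985964-134986263 on the plus strand and Cldn4 is chr5:134946885-134947184 on the minus strand.
Cldn3: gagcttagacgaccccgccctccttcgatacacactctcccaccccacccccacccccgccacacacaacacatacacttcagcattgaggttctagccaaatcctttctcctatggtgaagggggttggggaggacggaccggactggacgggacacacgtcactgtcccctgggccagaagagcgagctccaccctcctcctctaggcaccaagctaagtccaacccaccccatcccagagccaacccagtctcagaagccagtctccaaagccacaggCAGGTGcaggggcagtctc
Cldn4: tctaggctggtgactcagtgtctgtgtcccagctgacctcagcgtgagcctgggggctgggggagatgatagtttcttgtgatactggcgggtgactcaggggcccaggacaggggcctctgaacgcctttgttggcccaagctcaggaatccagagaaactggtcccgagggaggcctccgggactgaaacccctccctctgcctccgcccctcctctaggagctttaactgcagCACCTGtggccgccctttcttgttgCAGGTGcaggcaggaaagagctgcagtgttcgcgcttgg

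Cldn3 had the log2 fold change nearest to 0 of the 10 genes. It stood at 21.0, 22.8 and 20.6 CPM in NOD 1, 2 and 3, against 26.8, 21.6 and 18.8 CPM in ICR 1, 2 and 3. The 3 NOD/Ltj values lay inside the range of the ICR values. Between the groups the log2 fold change was −0.06 ± 0.18 (SE, adjusted p = 0.940), and 0.07 ± 0.15 without ICR 1 (adjusted p = 0.880). It was 0.05 when no scaling beyond library size was applied.

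Cldn4 varied most within ICR, with ICR 1 24.9-fold above the mean of ICR 2 and ICR 3. It stood at 0.777, 2.75 and 1.53 CPM in NOD 1, 2 and 3, against 12.4, 0.468 and 0.524 CPM in ICR 1, 2 and 3. ICR 1 was the highest and ICR 2 and ICR 3 were the lowest, so the NOD/Ltj libraries lay between libraries of the same ICR group. With all libraries the log2 fold change was −1.40 ± 1.21 (SE, adjusted p = 0.726). Without ICR 1 its sign turned, to 1.76 ± 0.60 (3.38-fold, adjusted p = 0.207), which did not pass. ICR 2 and ICR 3 held only 29 and 30 counts of Cldn4, against a floor of 12 counts (3 fragments).

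The occludin and ZO-1 genes had log2 fold changes of opposite sign, and neither passed after adjustment. Ocln stood at 4.02, 4.34 and 2.92 CPM in NOD 1, 2 and 3, against 4.03, 2.24 and 2.67 CPM in ICR 1, 2 and 3. It was the only gene of the 10 with a positive log2 fold change, 0.33 ± 0.32 (SE, adjusted p = 0.759), and all NOD/Ltj libraries were above ICR 2 and ICR 3 (0.60 ± 0.29 without ICR 1, adjusted p = 0.375). Tjp1 stood at 23.4, 17.4 and 17.4 CPM in NOD 1, 2 and 3, against 27.2, 27.0 and 24.0 CPM in ICR 1, 2 and 3. All NOD/Ltj libraries were below all ICR libraries, NOD 1 by the least. Its mean was 19.4 ± 3.45 CPM in NOD/Ltj and 26.1 ± 1.76 CPM in ICR (SD, n = 3 each). The log2 fold change was −0.43 ± 0.18 (SE, unadjusted p = 0.0464 in edgeR's quasi-likelihood test, adjusted p = 0.373). This value hardly depended on ICR 1 (−0.42 ± 0.18 without it, adjusted p = 0.315), and ICR 1 was only 1.01-fold above the next library.

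**Figure D3:**
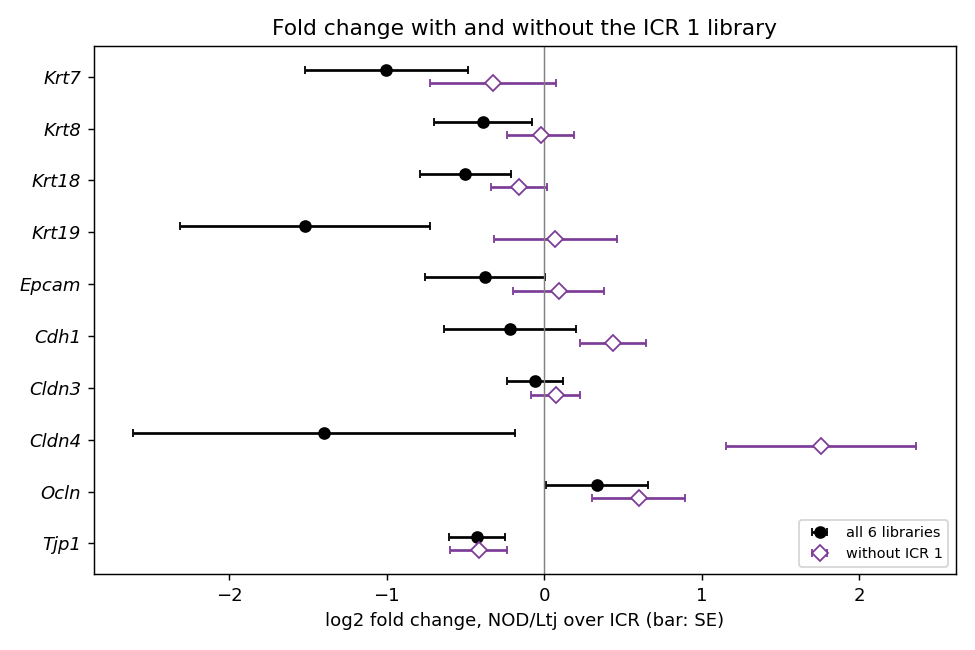
log2 fold change of each gene, NOD/Ltj over ICR, with bars for the SE, from edgeR with all 6 libraries (filled circles) and without ICR 1 (open diamonds). Cldn4 moves from −1.40 to 1.76 and Krt19 from −1.52 to 0.07, while Tjp1 stays at −0.43 and −0.42.

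Without ICR 1, the groups did not overlap for 5 of the 10 genes: Cdh1, Cldn4 and Ocln were above and Krt18 and Tjp1 below in NOD/Ltj. With 3 against 2 libraries, 35.4% of all genes tested did not overlap, and edgeR called 0 of the 10 and 2.71% of all genes. Among the NOD/Ltj libraries, NOD 2 had the highest level for 8 of the 10 genes, all but Krt8 and Tjp1, where it was the highest NOD/Ltj library for 35.5% of all genes tested. ICR 1 was the highest ICR library for 10 of 10, against 39.9% of all genes tested.

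Per kilobase of the main annotated transcript, the order of mean levels was the same in both strains for the 8 most abundant of the 10 genes. In NOD/Ltj it ran from Krt18 (108 ± 6.05 CPM per kb) and Krt8 (67.9 ± 9.26) over Epcam (29.0 ± 8.33), Cldn3 (17.1 ± 0.933) and Cdh1 (9.49 ± 1.39) to Krt7 (3.01 ± 1.34), Tjp1 (2.75 ± 0.489) and, with means that differ by less than their spread, Cldn4 (0.928 ± 0.549), Ocln (0.928 ± 0.184) and Krt19 (0.814 ± 0.217; SD, n = 3 each). The libraries of neighbours in this order did not overlap in NOD/Ltj, except between Krt7 and Tjp1, between Cldn4 and Ocln and between Ocln and Krt19. The place of Cldn4 in ICR rested on ICR 1, at 6.81 CPM per kb. In ICR 2 and ICR 3 it was the lowest of the 10 genes, at 0.258 and 0.289 CPM per kb. In ICR, Krt18 stood at 153 ± 57.9 and Krt8 at 88.8 ± 36.5 CPM per kb (SD, n = 3 each), and only the steps from Krt8 to Epcam and from Epcam to Cldn3 were free of overlap. The value of Krt7 depends on its main transcript of 4.09 kb, which is long for a keratin and was taken as annotated in GENCODE release M21.

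Ratios of genes within a library do not depend on the scaling between libraries. The log2 ratio of Ocln to Tjp1 was −2.54, −2.00 and −2.57 in NOD 1, 2 and 3, against −2.75, −3.59 and −3.17 in ICR 1, 2 and 3. All NOD/Ltj ratios were above all ICR ratios, by 0.80 on average (two-sided exact permutation p = 0.1, the smallest that 3 against 3 libraries can give; 0.5 after adjustment over 5 ratios). Without ICR 1 the difference was 1.01. The log2 ratio of Krt8 to Krt18 averaged −0.23 ± 0.22 in NOD/Ltj and −0.35 ± 0.17 in ICR (SD, n = 3 each; exact permutation p = 0.4), with ICR 1 (−0.31) between ICR 2 (−0.21) and ICR 3 (−0.53). The ratio of this keratin pair thus did not set ICR 1 apart.

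For the other pairs the groups overlapped. The log2 ratio of Epcam to Cdh1 averaged 0.47 ± 0.23 in NOD/Ltj and 0.72 ± 0.20 in ICR (SD, n = 3 each; exact permutation p = 0.2). That of Krt7 to Krt19 averaged 3.19 ± 0.54 in NOD/Ltj and 3.20 ± 0.89 in ICR (exact permutation p = 1, n = 3 each). That of Cldn3 to Cldn4 was 4.76, 3.05 and 3.75 in NOD 1, 2 and 3, against 1.11, 5.53 and 5.17 in ICR 1, 2 and 3 (exact permutation p = 1). The neighbouring claudin genes were therefore most unequal in ICR 2 and ICR 3 and most nearly equal in ICR 1. Without ICR 1 the difference, NOD/Ltj minus ICR, was −1.49 (exact permutation p = 0.2, where 0.1 is the smallest that 3 against 2 libraries can give).

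**Figure D4:**
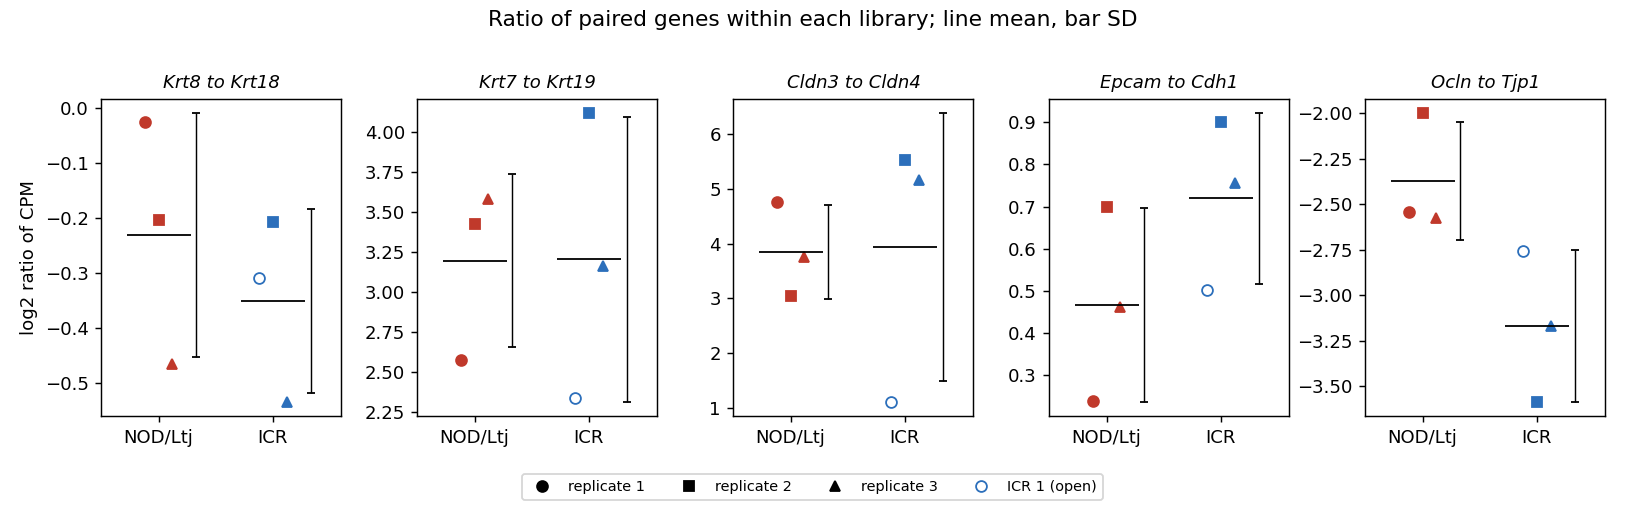
log2 ratio of the CPM of paired genes in every library, with NOD/Ltj left and ICR right; lines are means, bars are SD (n = 3 each) and the open circle is ICR 1. The axes differ between panels and do not start at 0. The groups are separate for Ocln to Tjp1 and overlap for the other 4 ratios.

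RefSeq promoters were found for 8 of the 10 genes, with a pair of start sites for Ocln. Those of Krt19 and Cdh1 were not used here. The sequence CAGGTG, searched on both strands, was present in 7 of these 8 genes, all but Tjp1, and in 8 of 9 promoters, against 20.2% of the 32851 mouse promoters of the same length. It began 44 bases before the start site in Krt7, 111 before in Krt8 and 214 before in Krt18. In Cldn4 it stood 14 bases before and again 11 bases after the start, and in Cldn3 31 bases after it. The pair of Ocln promoters overlap and share a site, 7 bases after the first start site and 213 before the second. That shared site is counted in both, and the second promoter holds another, 68 bases before its start. The palindrome AACCGGTT, a site of the Grainyhead-like factors that drive epithelial junction genes, was in none of the 9 and in 0.146% of all promoters. These matches describe the reference sequence and not the sequence of either strain.

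Among the other genes of epithelium and its junctions, 1 was called and most log2 fold changes were negative. Of 30 further tight junction genes, 1 fell, 29 were not called and 25 had negative log2 fold changes. Their median was −0.31 (−0.24 without ICR 1), against −0.03 for all genes tested. At an unadjusted p under 0.05 in edgeR, 8 were lower and 0 higher, against 5.05% of all genes tested that were lower. For 12 of the 30 the NOD/Ltj libraries were all below the ICR libraries and for none above, where 8.89% of all genes were lower without overlap. The gene that fell was Magi1, a scaffold with PDZ domains at tight and adherens junctions. It stood at 15.9, 14.9 and 18.3 CPM in NOD 1, 2 and 3, against 32.5, 43.3 and 39.9 CPM in ICR 1, 2 and 3. edgeR gave a log2 fold change of −1.24 ± 0.18 (SE, adjusted p = 0.0178) and −1.36 without ICR 1 (adjusted p = 0.0143). Its call ended without NOD 1 (adjusted p = 0.0566), NOD 2 (0.115), NOD 3 (0.108), ICR 2 (0.0770) or ICR 3 (0.0649).

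The most abundant of these partners did not pass. Ybx3, a Y-box protein that binds ZO-1, averaged 54.8 ± 6.72 CPM in NOD/Ltj and 75.4 ± 6.85 CPM in ICR (SD, n = 3 each, adjusted p = 0.335). Cgnl1, paracingulin of the junction plaque, had a log2 fold change of −0.32 ± 0.19 (SE, adjusted p = 0.567). Tjp3, the ZO-3 scaffold, is named after its values were seen. It averaged 12.97 ± 0.940 CPM in NOD/Ltj and 18.1 ± 0.722 CPM in ICR (SD, n = 3 each). The adjusted p of edgeR was 0.214.

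Among 16 further claudins, 10 passed the filter, 0 were called by edgeR and 1 had an unadjusted p under 0.05 (Cldn12). The median log2 fold change was −0.51, and −0.34 without ICR 1. Cldn10, which forms ion channels between cells of secretory epithelium, was the most abundant with 76.1, 58.4 and 56.8 CPM in NOD 1, 2 and 3, against 45.5, 103 and 50.1 CPM in ICR 1, 2 and 3. Cldn12 averaged 14.2 ± 1.68 CPM in NOD/Ltj and 20.2 ± 4.28 CPM in ICR (SD, n = 3 each, adjusted p = 0.353). Some scarcer claudins were, like Cldn4, highest in ICR 1, and are named here after their values were seen. Cldn2, which forms cation channels, stood at 1.68, 5.63 and 3.32 CPM in NOD 1, 2 and 3, against 13.5, 1.23 and 0.332 CPM in ICR 1, 2 and 3. As with Cldn4, the NOD/Ltj libraries lay between ICR 1 and the other ICR libraries, and the log2 fold change of Cldn2 was −0.50 with all libraries (adjusted p = 0.917) and 2.16 without ICR 1 (adjusted p = 0.195). Cldn1 had −0.26 with all libraries and 1.09 without ICR 1 (adjusted p = 0.946 and 0.493). Cldn7 and Cldn8 were also highest in ICR 1, at 16.6 and 19.1 CPM, and kept negative log2 fold changes without it (−0.38 and −0.48).

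Of 9 further keratins tested, 0 were called by edgeR (2 at an unadjusted p under 0.05) and all 9 had negative log2 fold changes. The median was −0.47, and −0.61 without ICR 1. Krt15 and Krt1 lay near the floor, at 0 to 0.476 CPM and 0.0740 to 0.262 CPM. Krt15, whose log2 fold change was the median of the list, had 1.89 without ICR 1. Krt23, a type I keratin, stood at 8.77, 9.10 and 9.66 CPM in NOD 1, 2 and 3, against 19.97, 14.6 and 14.5 CPM in ICR 1, 2 and 3, without overlap. The log2 fold change of −0.84 ± 0.19 (SE) missed the threshold in edgeR (adjusted p = 0.0824) and passed in DESeq2 (adjusted p = 0.00707). Krt5, the type II keratin of basal and myoepithelial cells, averaged 7.24 ± 3.19 CPM in NOD/Ltj and 10.4 ± 1.23 CPM in ICR (SD, n = 3 each, adjusted p = 0.630).

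The 16 adherens junction genes, 12 desmosomal genes and 6 connexins tested had 0 calls in edgeR, with median log2 fold changes of −0.21, −0.18 and −0.09. Without ICR 1 these medians were −0.16, −0.03 and −0.29. At an unadjusted p under 0.05 there were 1 (lower), 3 (2 lower and 1 higher) and 0, against 13.1% of all genes tested in either direction. Ctnnb1, β-catenin, the partner of E-cadherin, stood at 94.5, 93.4 and 92.3 CPM in NOD 1, 2 and 3, against 161, 95.1 and 97.7 CPM in ICR 1, 2 and 3. Only ICR 1 was far from the others (log2 fold change −0.34, and −0.06 without ICR 1). Afdn, which links nectins to actin, had a log2 fold change of −0.03 (adjusted p = 0.982), and the desmosomal genes Dsp and Perp −0.09 and −0.39 (adjusted p = 0.906 and 0.561). The connexins Gjb1 and Gjb2 had −0.29 and 0.19 (adjusted p = 0.602 and 0.852).

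Of 22 epithelial regulators tested, 0 were called by edgeR. At an unadjusted p under 0.05, 4 were lower, against 5.05% of all genes tested that were lower. Of the 22, 21 had negative log2 fold changes, against 53.0% of all genes tested. Their median was −0.26, and −0.21 without ICR 1. Ehf, an ETS factor of glandular epithelium, averaged 178 ± 3.87 CPM in NOD/Ltj and 182 ± 2.42 CPM in ICR (SD, n = 3 each, adjusted p = 0.965). Spint2, an inhibitor of membrane serine proteases, averaged 173 ± 13.4 CPM in NOD/Ltj and 195 ± 8.02 CPM in ICR (SD, n = 3 each, adjusted p = 0.787). Grhl2, a Grainyhead-like factor that activates Cdh1 and claudin genes, is named after its values were seen. It stood at 19.8, 17.1 and 19.6 CPM in NOD 1, 2 and 3, against 25.5, 28.5 and 33.3 CPM in ICR 1, 2 and 3, without overlap. Its log2 fold change of −0.62 ± 0.17 (SE) had an adjusted p of 0.141 in edgeR and 0.0432 in DESeq2.

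Of 12 genes of mesenchymal transition, 0 were called by edgeR (1 at an unadjusted p under 0.05). Their median log2 fold change of −0.72 became −0.03 without ICR 1, in which 8 of the 12 were highest. Vim, the mesenchymal intermediate filament, stood at 124, 135 and 122 CPM in NOD 1, 2 and 3, against 281, 102 and 109.8 CPM in ICR 1, 2 and 3. Fn1, fibronectin of the matrix, followed it with 401 CPM in ICR 1 and 161 to 241 CPM in NOD/Ltj. The repressor Zeb1, named after its values were seen, was at 30.3 CPM in ICR 1 and between 3.54 and 8.00 CPM in the other libraries, so its highest level was in the library with the highest Krt7, Krt19 and Cldn4. Snai1 had 1.11 ± 0.400 CPM in NOD/Ltj and 0.872 ± 0.115 CPM in ICR (SD, n = 3 each, adjusted p = 0.828).

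Of 13 duct markers tested, 0 were called by edgeR (5 at an unadjusted p under 0.05), and 9 were highest in ICR 1. Clu, clusterin, stood at 59.9, 119 and 72.6 CPM in NOD 1, 2 and 3, against 258, 53.8 and 53.9 CPM in ICR 1, 2 and 3, an order much like that of Cldn4. Its log2 fold change was −0.54 with all libraries and 0.62 without ICR 1 (adjusted p = 0.812 and 0.380). Sox9, a factor of ductal and progenitor epithelium, had −0.56 ± 0.23 (SE, adjusted p = 0.371), and −0.33 without ICR 1. Of 12 myoepithelial and basal genes 0 were called by edgeR (2 at an unadjusted p under 0.05), with Acta2 at −0.20 and Tagln at 0.24 (adjusted p = 0.748 and 0.625).

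**Figure D5:**
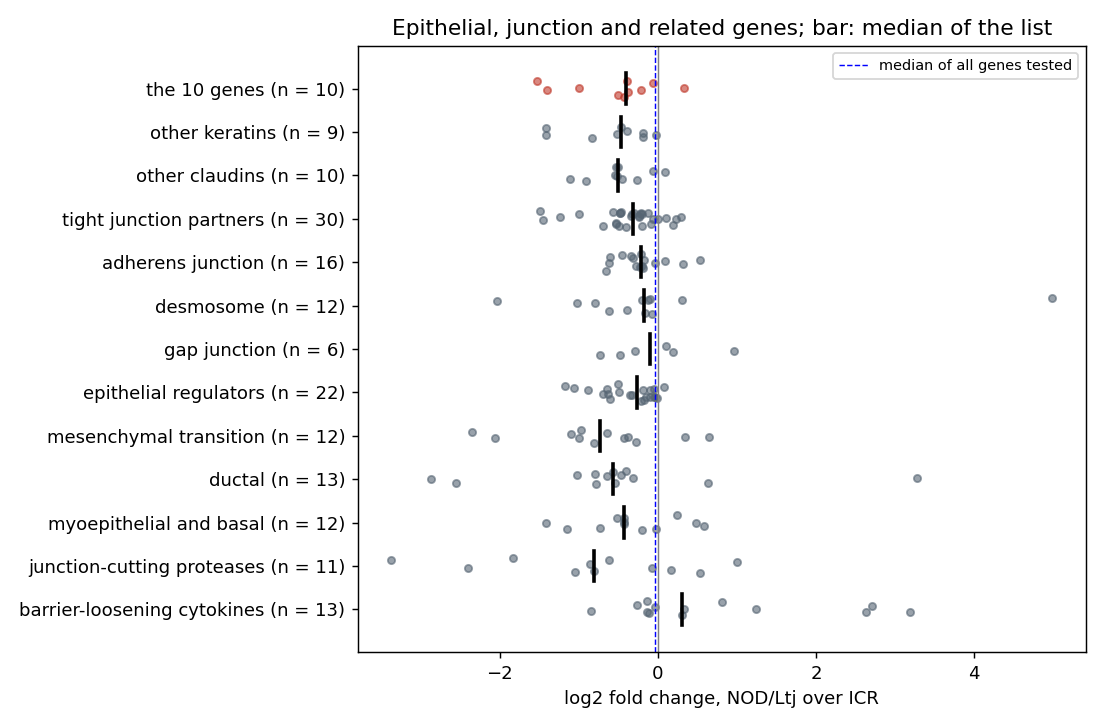
log2 fold change, NOD/Ltj over ICR, of the 10 genes and of each gene tested in 12 lists of epithelium, junctions, proteases and cytokines; black bars are list medians and the dashed line is the median of all genes tested (−0.03). The median of the cytokine list is 0.31, and those of the other 11 lists lie between −0.81 and −0.09.

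Proteases and cytokines that act on junctions included a single call. Of 11 genes of proteases that cut junction proteins and their inhibitors, 5 were lower and 1 higher at an unadjusted p under 0.05 in edgeR. Over all genes tested 13.1% passed that threshold in either direction. The median log2 fold change of the 11 was −0.81, and −0.29 without ICR 1, in which 7 of the 11 were highest. Of the 5 lower genes, Mmp2 was at 98.8 CPM in ICR 1 and between 6.98 and 11.1 CPM elsewhere. Mmp9 lay near the floor, at 0 to 0.121 CPM in NOD/Ltj and 0.175 to 0.794 CPM in ICR. Only Timp3, a matrix-bound inhibitor of metalloproteinases, was called, and it fell. It stood at 26.9, 25.6 and 25.6 CPM in NOD 1, 2 and 3, against 46.7, 52.0 and 42.9 CPM in ICR 1, 2 and 3 (log2 fold change −0.86 ± 0.16 SE, adjusted p = 0.0392). Its call held without ICR 1 (0.0382) and ended without NOD 1 (0.0975), NOD 2 (0.200), NOD 3 (0.239), ICR 2 (0.136) or ICR 3 (0.0745). It also ended with limma-voom (0.0547), with no filter on low counts (0.0546) and with no scaling (0.332). Timp2, a related inhibitor, was at 267 CPM in ICR 1 and between 30.3 and 39.8 CPM elsewhere. Ctss, the cathepsin studied as a tear marker of Sjögren's syndrome, is named after its values were seen. It stood at 41.3, 55.9 and 41.6 CPM in NOD 1, 2 and 3, against 41.3, 9.59 and 18.2 CPM in ICR 1, 2 and 3, and passed only without ICR 1 among the edgeR fits that left out a library (1.73, adjusted p = 0.0389).

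Of 13 cytokine and receptor genes tested, 0 were called by edgeR (4 higher at an unadjusted p under 0.05), with a median log2 fold change of 0.31. Without ICR 1 the median was 0.56 and 1 gene was called higher (Tnf). The receptors Ifngr1 and Il1r1, the most abundant, had 0.33 and −0.14 (adjusted p = 0.701 and 0.807), and 0.56 and −0.17 without ICR 1. Tnf, named after its values were seen, stood at 2.05, 4.21 and 2.98 CPM in NOD 1, 2 and 3, against 1.17, 0.0969 and 0.210 CPM in ICR 1, 2 and 3. ICR 2 and ICR 3 were under or at the floor of 12 counts (0.194 and 0.210 CPM). Its adjusted p was 0.231 in edgeR, 0.0201 without ICR 1 and 0.0189 in DESeq2. Lymphocyte markers separated the strains at the same time. The sum of 11 B and T cell markers was 152 to 483 CPM in NOD/Ltj and 12.8 to 20.4 CPM in ICR, with 9 of 11 called higher, and their part in the levels of the 10 genes was not tested.

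The genes with the pattern most like the mean of the 10 over the 6 libraries, among 8885 eligible genes, were Cygb, a globin of fibroblast-like cells, Casp12, a caspase of the endoplasmic reticulum, Mapre1, a microtubule end-binding protein, Aplp2, an amyloid precursor-like membrane protein, and Pole3, a DNA polymerase subunit. Their Pearson r was 0.998, 0.998, 0.997, 0.996 and 0.995 over 6 libraries, and 0.984, 0.985, 0.973, 0.959 and 0.967 over the 5 without ICR 1. Cygb stood at 4.81, 7.10 and 5.01 CPM in NOD 1, 2 and 3, against 17.7, 4.63 and 4.38 CPM in ICR 1, 2 and 3. These r describe a shared order of libraries, headed by ICR 1 and then NOD 2, chosen from many genes and few libraries.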

How the data were processed

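Per the labels' protocols, polyadenylated RNA was made into dUTP-marked libraries and read from both ends. fastp, StringTie and edgeR appear, without versions, in the submitters' processing notes. The aligner, build and strand setting were not given in the sources used here, so genes that overlap another gene are uncertain. The authors deposited estimated counts per gene (expected counts), in whole numbers. The values are unscaled, and nothing had to be rounded. Low values piled up at multiples of 4 (30.4 to 31.7% of values up to 40). Depth was 58426580 to 76554340 counts per library, at about 4 counts per fragment. Reads carried no molecular identifiers, so the floor covers counting error only. Identifiers were matched to GENCODE M21 symbols (55141 of 55401). The table's columns name the strain NOD, where the titles write MOD and the genotype label NOD/Ltj.

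edgeR 4.0.16 in R 4.3.3 fitted all 6 libraries (quasi-likelihood test, TMM, filterByExpr, two-sided, no block). p-values were adjusted by Benjamini-Hochberg over 18537 genes, and a call is an adjusted p under 0.05. The SE is the absolute log2 fold change over the square root of F. Alternatives were DESeq2 1.42.0, limma-voom (limma 3.58.1), other scalings and filters, counts divided by 4, a replicate block and fits without each library. The fits were tested on simulated data. With counts divided by 4, each pair of libraries differed beyond sampling noise (chi-square per degree of freedom of at least 38.7). Each was counted as 1 sample. This check can find only repeat sequencing of 1 library, and cannot show that libraries come from separate animals. The genes, lists and tests were chosen with earlier results of these data known. Of each list of epithelium, junctions, proteases and cytokines, called genes (at most 5) and the 2 most abundant were named, and others are marked as named after their values were seen. Genes of like pattern were the 5 with the highest Pearson r to the mean of the centred log2 CPM of the 10, among named genes with at least 5 CPM on average.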

Additional observations from a re-analysis of the deposited data

How the results depend on the processing

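None of the 10 genes was called under any of the 16 alternatives run (other scalings, filters and tests, counts divided by 4, the replicate block and each library left out). Leaving out single libraries put their median log2 fold change (−0.41 with all) between −0.62 and 0.071, the highest without ICR 1. Calls over all genes, 349 higher and 67 lower, were 226 and 40 with no scaling beyond library size, 898 and 285 with DESeq2 and 123 and 20 with limma-voom. With 1 library left out they ranged from 11 to 406 higher and from 2 to 118 lower. Leaving out scaling moved the median of all genes by 0.12 on the log2 scale. The 2 calls in the epithelial, junction, protease and cytokine lists became 0 with no scaling, 1 with no filter on low counts, 10 with DESeq2, 1 with limma-voom and 0 to 4 with 1 library left out. The cause was not tested.

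Signs turned for genes with small or uneven differences. With no scaling, Cldn3 had 0.045, Cldn10 0.12, Afdn 0.040 and Ehf 0.088, and with limma-voom Cldn4 had 0.00548, Cldn1 0.0990, Cldn2 0.79 and Cldn10 0.037. With 1 library left out the log2 fold change ranged from −1.96 to 0.069 for Krt19, −0.65 to 0.092 for Epcam, −0.51 to 0.44 for Cdh1, −0.17 to 0.072 for Cldn3 and −1.94 to 1.76 for Cldn4. The ranges were −0.29 to 0.42 for Cldn10, −0.30 to 0.16 for Afdn, −0.18 to 0.062 for Dsp, −0.013 to 0.44 for Gjb2, −0.62 to 0.25 for Vim and −0.90 to 0.62 for Clu. They were −0.86 to 1.09 for Cldn1, −1.05 to 2.16 for Cldn2 and −1.44 to 0.44 for Zeb1. Magi1 and Timp3 were not called with no scaling (adjusted p = 0.0785 and 0.332).

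The labels do not say whether equal replicate numbers pair the samples. Deviations of same-numbered libraries from their group means correlated at −0.12, −0.15 and 0.07. For libraries of unlike numbers the values ran from −0.068 to 0.17. With 3 libraries per group these deviations are tied to each other, so the values cannot decide whether equal numbers share a day, batch or litter. With the replicate block, 129 genes were higher and 25 lower, 0 of the genes in the lists were called (adjusted p = 0.0871 for Magi1 and 0.169 for Timp3), and the log2 fold changes were 0.48 for Cldn4, 0.038 for Cldn10, 0.29 for Cldn1 and 1.19 for Cldn2. Among the 10 genes, depth limits Cldn4 most, with 29 counts in its lowest library.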

Other observations

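Msln, which encodes mesothelin, a surface protein of mesothelium and some glandular epithelium, was chosen after its values were seen. It stood at 6.20, 66.7 and 34.2 CPM in NOD 1, 2 and 3, against 45.8, 0.517 and 2.08 CPM in ICR 1, 2 and 3 (log2 fold change 1.15 ± 1.44 SE in edgeR, adjusted p = 0.828; 4.79 without ICR 1, adjusted p = 0.0833). ICR 1 and NOD 2 were the highest libraries of their groups, as for Cldn4, Cldn2 and Clu. Of the other 5 mesothelial markers looked for, none passed the filter on low counts, and Muc16 was at 0 in all libraries.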
